A study of Marchantia polymorpha with 78 samples.

Results

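The 157 genes described here are those whose transcripts were at least 1 log2 unit more abundant after 24 h of further darkness than at time zero in Marchantia polymorpha, out of 19355 genes in the deposited table (0.811%). They were chosen on the replicate-averaged TPM (a length-corrected transcript level with the same sum in every library) as log2(TPM + 1) in darkness at 24 h minus time zero; 161 genes passed and 4 of them were left out. The values in darkness at 24 h and at time zero therefore chose the genes and are given as a description, with no test, as are all differences from time zero. All 157 genes also passed the filter on low values used for the tests, at least 1 TPM in 3 or more libraries, which 13054 genes of the table passed.

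All plants were wild-type Tak-1, a male laboratory line of this liverwort, grown as thalli from gemmae for 8 days in continuous white light on sugar-containing agar and then kept for 24 h in darkness. From that point, plates were exposed to far-red light (emission maximum 730 nm), red light (660 nm), blue light (430 nm) or broad white light, or stayed in darkness, and each of the 5 conditions was sampled at 30 min, 60 min, 180 min, 12 h and 24 h. The light intensity differed: 30 to 40 micromoles per square metre and second in far-red and in blue light, 80 to 90 in red light and 50 to 60 in white light. Effects of light colour and of intensity cannot be told apart, except that far-red and blue light had the same stated range. Time zero was taken at the end of the 24 h of darkness, so the dark plants had already been without light when this course began. The 26 groups hold 3 poly(A) RNA libraries each, and each library pools several whole plants, so fewer cells of a type and less RNA per cell cannot be told apart. Replicates of a condition shared a plate, and effects of plate and of light cannot be told apart here. The p-values measure the spread between these libraries.

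Plants kept in the dark lose photosynthetic sugar supply and also the active forms of their photoreceptors. Red and far-red light act mainly through phytochrome, blue light through cryptochrome and phototropin, and far-red light alone drives little photosynthesis. Genes that accumulate transcripts in prolonged darkness commonly include those of nutrient recycling, stress protection and hormone turnover.

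The dark-rising genes stood at different levels in the 4 lights after 24 h. In far-red light the typical gene stood nearly as far above time zero as in darkness (medians of 1.01 and 1.25 log2 units). In red, blue and white light it stood near its time-zero level, with 30 to 35 of the genes at least 1 log2 unit above that level and 35 to 41 at least 1 below it; over all tested genes 13.4% to 16.4% were above and 8.36% to 11.5% below by that margin. The dirigent gene MpDIR39, the chitinase MpGH19.3, the cytokinin-degrading enzyme MpCKX1 and the factor MpWRKY14 were among those far below time zero in red light and above it in far-red light. Of 8 flavonoid members, 5 were lower in far-red than red light, as were 17 of 62 flavonoid genes and 9.98% of all tested genes. Of 8 late embryogenesis abundant (LEA) members, 5 were lower in blue than red light, against 20 of 64 LEA genes. Over all tested genes 1.06% were lower in blue. With 5 in place of 1 added to TPM, MpLEA1, MpLEA-like9, MpLEA-like10 and MpLEA-like48 fell under 1 log2 unit in blue minus red. MpPAL-like2 and MpPKS/CHS13 did so in far-red minus red.

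Of the 157 genes, 148 matched an entry of the name table and 59 have a symbol there; the other 98 are referred to by identifier. The rise was mostly modest: the median difference of darkness at 24 h from time zero was 1.25 log2 units, with quartiles of 1.10 and 1.46, and the median gene stood at 17.1 TPM in darkness at 24 h and 5.77 TPM at time zero. Just inside the threshold were Mp7g17690 with 44.5 TPM in darkness at 24 h and 21.7 TPM at time zero, Mp2g07480 with 381 and 190 TPM in the same order, and Mp6g18200 with 124 and 61.2 TPM. Just outside it were Mp3g01480 with 7.76 TPM in darkness at 24 h and 3.38 TPM at time zero, MpNAC2 with 221 and 110 TPM, and MpSUT4 with 90.0 and 44.6 TPM. The values on both sides of the threshold ran on without a gap.

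The most abundant of the genes was Mp7g02900, with 3020, 2711 and 2999 TPM in darkness at 24 h, against 1121, 962 and 925 TPM at time zero. MpGST9 (Mp7g13390), a glutathione transferase of the detoxifying enzyme family, had 752, 737 and 811 TPM in darkness at 24 h, against 373, 335 and 330 TPM at time zero. Together the 157 genes held 9843 TPM in darkness at 24 h, averaged over libraries, and 3734 TPM at time zero.

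Members made up 1.2% of all tested genes. By family, the fixed symbol lists placed 8 members among 64 tested LEA and dehydrin genes (12.5%), 8 among 62 flavonoid genes (12.9%), 5 among 42 dirigent genes (11.9%), 5 among 70 pathogenesis-related, cupin and lipid transfer genes (7.14%), 7 among 191 transcription factors (3.66%), 6 among 192 cell wall enzymes (3.12%) and 3 among 46 hormone genes outside the abscisic acid list (6.52%). There was 1 member among 40 cell cycle and histone genes (2.5%), the histone H2A variant MpH2A.X.2, 1 among 108 kinases (0.926%) and 1 among 116 class III peroxidases (0.862%). No member came from the 21 tested autophagy genes, the 27 abscisic acid genes, the 28 dioxygenases, the 42 glycosyl and methyl transferases, the 7 light signalling and clock genes or the 5 F-box genes. These shares describe the rule's outcome and carry no test. By the order of identifiers along the chromosomes, 46 of the 157 genes (29.3%) had another member within 5 loci, in 20 runs; for the 257 genes that were at least 1 log2 unit lower in darkness at 24 h the same share was 24.1%. The runs of 3 or more include MpLEAL7, an unnamed gene, MpLEA-like9 and MpLEA-like10 on chromosome 2, MpPAL-like2, an unnamed gene, MpPKS/CHS13 and MpPKS/CHS14 on chromosome 4, and MpDIR35, MpDIR33 and MpDIR32 on chromosome 5. Such neighbours can be near-identical copies, and how the authors' counting shared reads between copies, or between strands, is not given in the sources used here, so the levels of single family members are uncertain.

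Over the time course, the 157 genes moved slowly in darkness. Their median difference from time zero in darkness was 0.08 log2 units at 30 min, 0.05 at 60 min, 0.30 at 180 min, 0.89 at 12 h and 1.25 at 24 h. In far-red light the corresponding medians were 0.17, 0.49, 0.81, 1.00 and 1.01. The far-red median thus stood above the darkness median up to 12 h, most clearly at 60 and 180 min, and was much the same at 12 h and 24 h. No sample was taken between 180 min and 12 h. Red light gave medians of 0.36, 0.71, 0.13, 0.11 and -0.03, blue light 0.31, 0.60, 0.20, 0.30 and 0.15, and white light 0.37, 0.46, 0.13, 0.13 and -0.19. The typical gene was therefore transiently higher at 60 min in each of these lights and back near its starting level by 180 min. The median over all tested genes lay between -0.02 and 0.20 throughout. A pair of the 60 min libraries stood apart from their groups: in far-red replicate 3, 10 members, 5 of them LEA genes, were at least 1 log2 unit from the mean of the other 2 libraries, and in darkness replicate 3 there were 8. Without these libraries, an alternative chosen after seeing the data, the 60 min medians were 0.54 in far-red light and 0.00 in darkness. Neither library is in a group compared below.

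**Figure D1:**
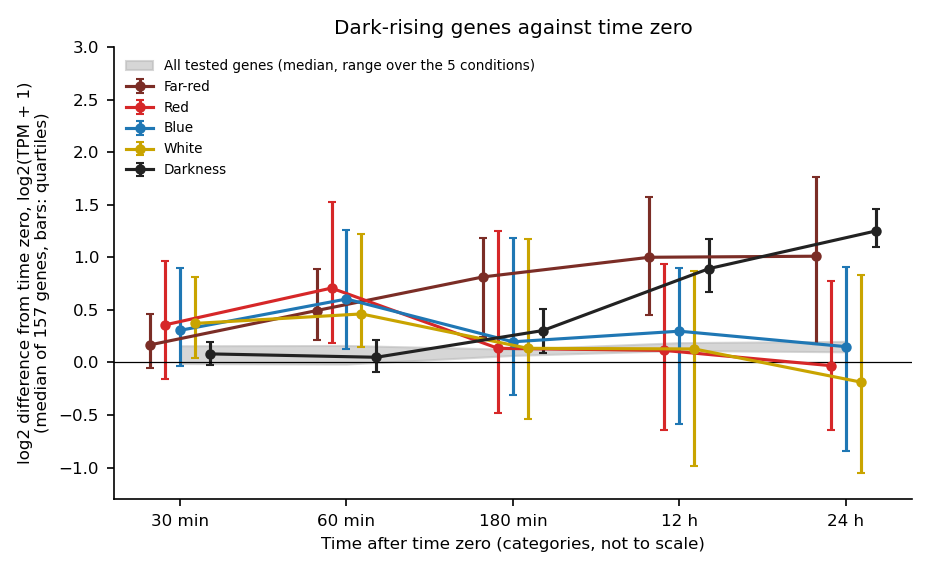
Median log2(TPM + 1) difference from time zero of the 157 dark-rising genes at 5 times (categories, not to scale) in far-red, red, blue and white light and in darkness; bars give the quartiles over genes and the grey band the range of the median over all tested genes. Far-red light and darkness end at 1.01 and 1.25, and the other 3 lights between -0.19 and 0.15.

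At 24 h in far-red light, 79 of the 157 genes were at least 1 log2 unit above time zero and 11 at least 1 below it, where 10.4% and 5% of all tested genes were. In red light 32 were above and 35 below by that margin (16.4% and 11.5% of all tested genes), in blue light 35 and 35 (13.4% and 8.36%), and in white light 30 and 41 (15.3% and 9.99%). Because low values at time zero helped to choose the genes, differences upward from it are partly given by the choice. Among the 4 lights at 24 h, far-red light held the highest mean level for 104 of the 157 genes (66.2%, against 46.7% of all tested genes) and white light for 7 (4.46%, against 16.6%). Far-red light was lowest for 20 genes (12.7%, against 34.6%), and red, blue and white light for 51, 41 and 45.

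**Figure D2:**
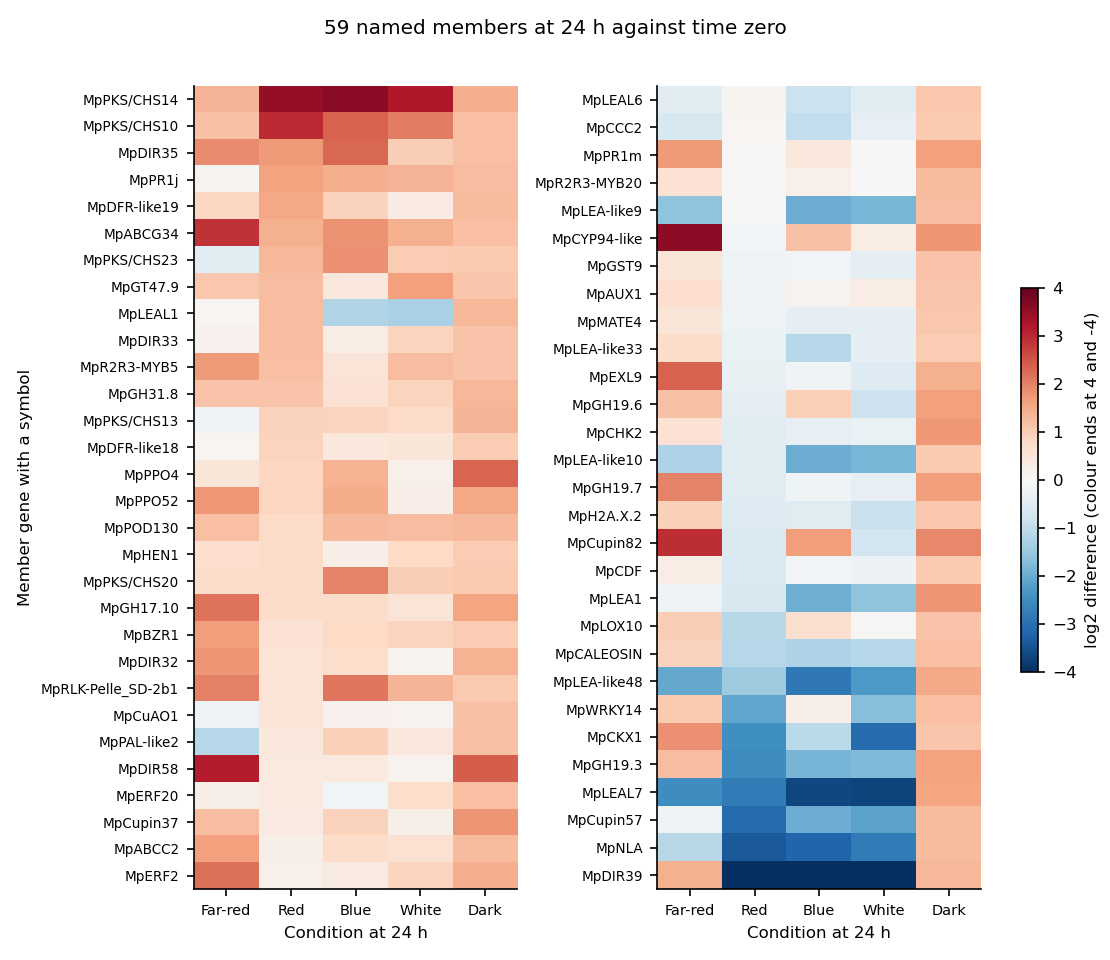
Log2(TPM + 1) difference from time zero at 24 h of the 59 members with a symbol (listed from the highest to the lowest in red light) in far-red, red, blue and white light and in darkness. The darkness column is positive by the choice of genes; the bottom genes of the right panel, from MpWRKY14 to MpDIR39, are blue in red light, and MpLEAL7, MpLEA-like48, MpLEA-like9, MpLEA-like10, MpPAL-like2 and MpNLA are at least 1 log2 unit below time zero in far-red light.

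The rise in darkness was tested between libraries that did not choose the genes, darkness at 12 h and darkness at 30 min. Of the 157 genes, 47 were called higher and 0 lower, where called means a limma adjusted p (Benjamini-Hochberg over 13054 genes) under 0.05 and a log2 difference of at least 1; over all tested genes 0.866% were called higher and 0.912% lower. The median difference was 0.77 log2 units for the 157 genes and 0.11 for all tested genes, and 156 of the 157 differences were positive. Without the fold threshold 132 members passed, but no all-gene count is given at that setting, so this number has no background. After scaling libraries by median ratios, 32 members were called higher and the split over all genes moved to 63 higher and 208 lower from 113 and 119. A pseudocount of 5 left 18 members higher, and 39 higher and 70 lower over all genes.

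Several regulators were among the 47 members called higher in darkness at 12 h than at 30 min. MpERF2 (Mp7g13760), an AP2/ERF transcription factor, had 38.9, 37.1 and 41.4 TPM in darkness at 12 h, against 10.9, 11.4 and 10.8 TPM in darkness at 30 min. The groups stood far apart, and the log2 difference was 1.73 (SE 0.17, limma adjusted p = 2.6e-13). MpR2R3-MYB20 (Mp4g21790), a MYB transcription factor, had 98.6, 91.1 and 107 TPM at 12 h, against 43.1, 41.6 and 42.3 TPM at 30 min, a log2 difference of 1.20 (SE 0.09, limma adjusted p = 1.2e-17). MpCHK2 (Mp6g00310), a histidine kinase of the cytokinin receptor family, had 37.3, 35.4 and 35.4 TPM at 12 h, against 19.2, 18.0 and 15.5 TPM at 30 min. Its log2 difference of 1.00 (SE 0.10, limma adjusted p = 7.5e-13) lay on the threshold, and its call was lost at 0.98 without darkness 12 h replicate 1, at 0.92 without darkness 30 min replicate 3 and at 0.85 after median-ratio scaling.

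The largest rises were in genes without a symbol, and a pair of examples was singled out after their values were seen. Mp7g07360 had 143, 144 and 141 TPM in darkness at 12 h, against 26.1, 27.8 and 29.4 TPM in darkness at 30 min (log2 difference 2.32, SE 0.14, limma adjusted p = 6.1e-22), and by 24 h it stood at 276, 266 and 290 TPM. Mp1g17680 had 45.9, 42.8 and 49.4 TPM at 12 h, against 8.44, 5.81 and 7.74 TPM at 30 min, a log2 difference of 2.51 (SE 0.13, limma adjusted p = 3.8e-25). In both genes every 12 h library was above every 30 min library.

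Darkness 12 h replicate 1 also stood apart. Of genes averaging 5 TPM or more over all libraries, 46 differed from the mean of the other 2 libraries by at least 1 log2 unit, and 4 of them are members, among them MpCDF, a cycling DOF transcription factor, and MpBZR1, a relative of the brassinosteroid response factor of Arabidopsis. MpBZR1 had 49.8, 116 and 125 TPM in replicates 1, 2 and 3, and MpCDF had 34.6, 110 and 124 TPM. Without that library the count called higher in darkness at 12 h against 30 min was 49, and the counts against red light at 12 h were 15 higher and 70 lower, so the totals moved little.

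Each light was then set against darkness at the same 12 h; the 4 comparisons share the 3 darkness libraries. As the genes were chosen for a rise in darkness, lower values in light are partly given by the choice. Far-red light differed least from darkness: 23 members were higher and 11 lower (all tested genes 2.21% and 1.04%), with a median of 0.09 log2 units against 0.07 for all tested genes. Red light had 16 members higher and 68 lower (13.2% and 11.1% of all tested genes) with a median of -0.78, blue light 14 and 58 (10.8% and 8.84%) with -0.65, and white light 11 and 68 (13.4% and 10%) with -0.83. The medians over all tested genes in those 3 comparisons lay between 0.05 and 0.07.

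With a pseudocount of 5, which damps low-level genes, the counts of lower members at 12 h were 38 in red, 37 in blue and 41 in white light. Over all 13054 tested genes 981, 749 and 896 were lower in that order. Far-red light had 13 members higher and 6 lower, and 135 and 61 of all tested genes. The direction of the split between lights was the same.

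The course within each light from 30 min to 24 h used neither darkness nor time zero. Far-red light had 58 members higher and 11 lower at 24 h than at 30 min (5.4% and 4.11% of all tested genes; medians 0.71 for members and 0.14 for all). Red light had 13 higher and 54 lower (10.5% and 13.5%; medians -0.54 and -0.11), blue light 14 and 55 (8.37% and 9.77%; -0.48 and -0.09) and white light 12 and 58 (9.57% and 9.6%; -0.67 and -0.03). The 4 courses share no libraries. Of the 157 genes, 28 (17.8%) fell in all of the red, blue and white courses, as did 5.93% of all tested genes, and 80 (51%) fell in at least 1 of them, against 16.5%. Another 30 members (19.1%) were called in no course, against 66.5% of all tested genes. After median-ratio scaling the far-red course called 47 members higher and 12 lower, and all genes split into 470 higher and 777 lower in place of 705 and 536.

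**Figure D3:**
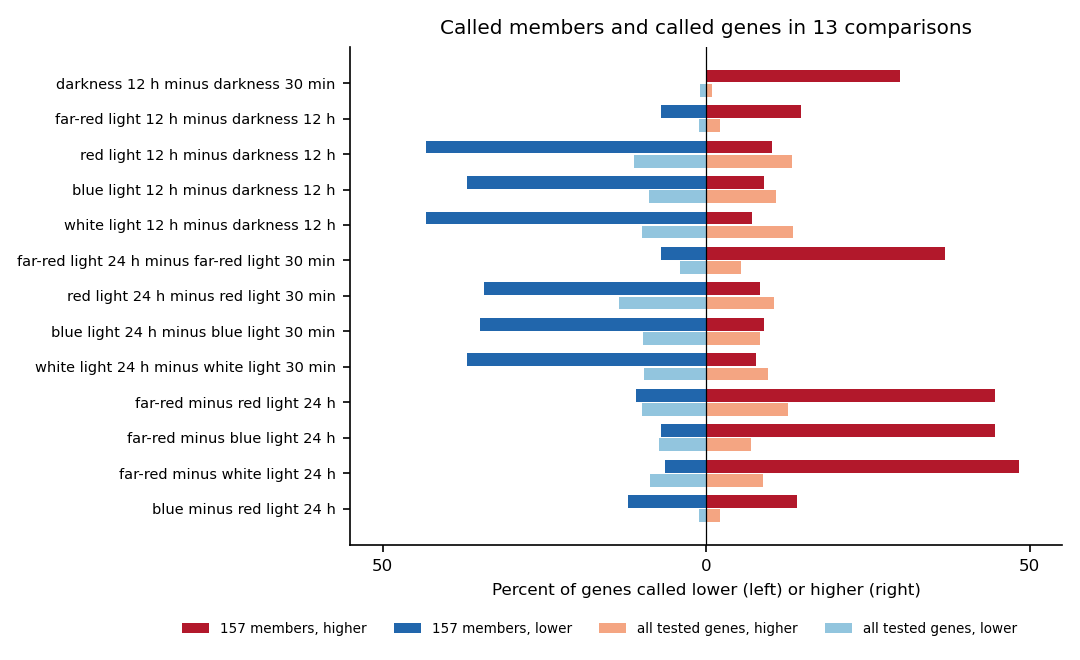
Percent of the 157 dark-rising genes (dark bars) and of all tested genes (pale bars) called higher (right) or lower (left) in 13 limma comparisons that use neither time zero nor darkness at 24 h. Members lean to the right in the far-red course and in far-red against each other light, where 44.6% to 48.4% were higher, and to the left in red, blue and white light.

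Between lights at 24 h, with no dark library involved, 70 members were higher and 17 lower in far-red than in red light, where 12.6% and 9.98% of all tested genes were, and the medians were 0.90 for members and 0.10 for all tested genes. Against blue light 70 were higher and 11 lower (6.87% and 7.34%; medians 0.90 and 0.11), and against white light 76 and 10 (8.72% and 8.69%; 0.98 and 0.09). These 3 comparisons share the far-red libraries. After median-ratio scaling, which moved the all-gene median of far-red minus red from 0.10 to -0.03 log2 units, 64, 59 and 69 members were higher in far-red than in red, blue and white light, while all genes split into 1293 higher and 1612 lower against red, 670 and 1146 against blue and 894 and 1335 against white light, in place of 1646 and 1303, 897 and 958, and 1138 and 1134.

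Dirigent proteins guide the coupling of phenolic radicals into lignan-like products, and 5 members belong to this family. MpDIR39 (Mp5g16510) had 91.2, 86.0 and 103 TPM in far-red light at 24 h, 0.334, 0.177 and 0.477 TPM in red light, 1.11, 0.626 and 1.83 TPM in blue light and 0.618, 1.33 and 0.884 TPM in white light. In darkness at 24 h MpDIR39 had 88.6, 84.3 and 88.5 TPM, and at time zero 33.1, 34.2 and 34.3 TPM. The far-red and darkness libraries overlapped, and no red, blue or white library reached 2 TPM. The far-red minus red difference was 6.15 log2 units (SE 0.14, limma adjusted p = 1.3e-45), the largest among the 59 members with a symbol.

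MpDIR58 (Mp2g03460) had the largest difference between darkness at 24 h and time zero of all members with a symbol. It had 12.3, 11.2 and 11.7 TPM in far-red light at 24 h, 0.454, 0.497 and 1.65 TPM in red, 1.21, 0.699 and 0.702 TPM in blue and 0.630, 0.545 and 0.509 TPM in white light. Levels of MpDIR58 were 6.22, 7.21 and 6.59 TPM in darkness at 24 h and 0.518, 0.457 and 0.321 TPM at time zero. Every far-red library was above every darkness library, and red, blue and white light stayed near time zero; far-red minus red was 2.83 log2 units (SE 0.16, limma adjusted p = 3.6e-24). The neighbours on chromosome 5 did not share one order. MpDIR35 (Mp5g16900) had 13.6, 15.3 and 14.5 TPM in far-red light at 24 h and 12.1, 12.0 and 13.7 TPM in red light, and its far-red minus red difference of 0.18 (SE 0.28, limma adjusted p = 0.56) was not called. MpDIR33 (Mp5g16920) was lower in far-red than in red light, at a log2 difference of -1.06 (SE 0.19, limma adjusted p = 1.6e-06), and MpDIR32 (Mp5g16930) was higher, at 1.22 (SE 0.34, limma adjusted p = 0.0011). The MpDIR32 call was lost at 0.62 with a pseudocount of 5 and at 0.99 without replicate number 2. Of the 42 tested dirigent genes, 8 were higher and 8 lower in far-red than in red light (12.6% and 9.98% of all tested genes).

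**Figure D4:**
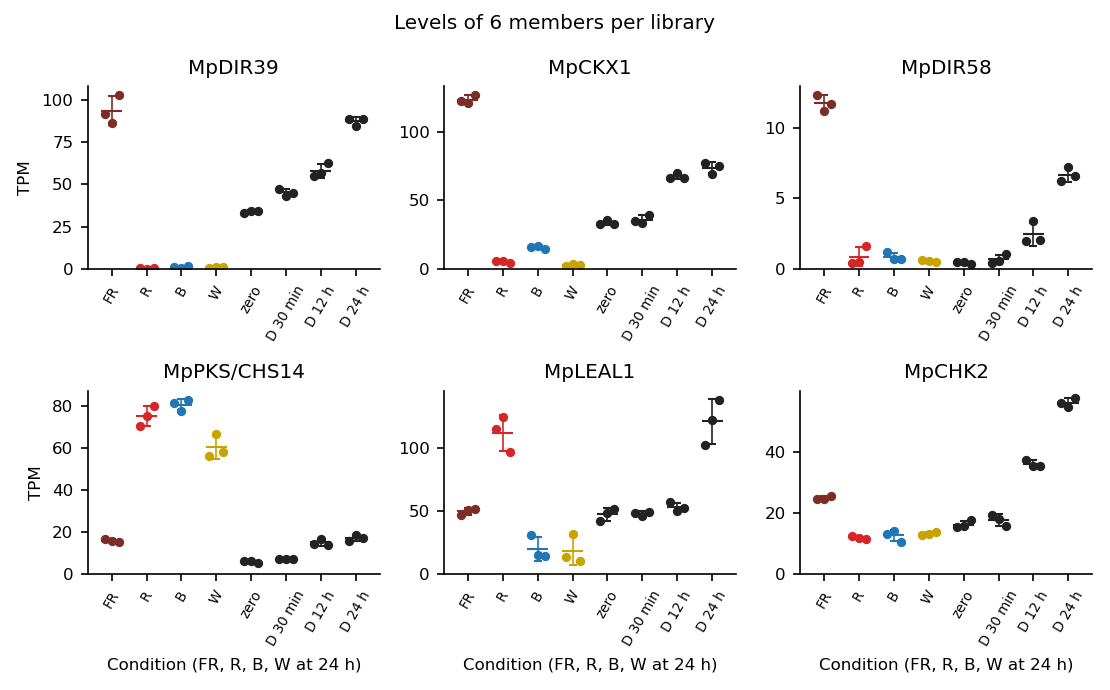
TPM per library (points), mean (line) and SD (bars, n = 3) of 6 members in far-red (FR), red (R), blue (B) and white (W) light at 24 h, then at time zero and after 30 min, 12 h and 24 h of further darkness (D); linear axes from 0. MpDIR39, MpCKX1 and MpDIR58 are high in far-red light and near 0 in red and white light, MpPKS/CHS14 is high in red, blue and white light, MpLEAL1 is low in blue and white light, and MpCHK2 is highest in darkness at 24 h.

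Both a cytokinin receptor and a cytokinin-degrading enzyme were among the members. MpCKX1 (Mp5g03090), a cytokinin oxidase, which breaks the hormone down, had 123, 121 and 127 TPM in far-red light at 24 h, 6.07, 5.64 and 4.23 TPM in red, 15.8, 16.3 and 14.4 TPM in blue and 2.29, 3.84 and 3.11 TPM in white light. For MpCKX1, darkness at 24 h gave 77.4, 69.3 and 74.9 TPM and time zero 32.8, 35.7 and 32.5 TPM. The lights did not overlap: far-red was highest, blue was next, and red stood above white. Far-red minus red was 4.31 log2 units (SE 0.12, limma adjusted p = 4.7e-41) and blue minus red 1.40 (SE 0.12, limma adjusted p = 8.6e-16). The receptor-family gene MpCHK2 had 24.4, 24.7 and 25.4 TPM in far-red, 12.2, 11.7 and 11.4 TPM in red, 13.2, 14.1 and 10.6 TPM in blue and 12.6, 13.04 and 13.8 TPM in white light at 24 h. By comparison, MpCHK2 had 56.0, 54.8 and 57.6 TPM in darkness at 24 h and 15.3, 15.5 and 17.6 TPM at time zero. MpCHK2 was therefore highest in darkness, with far-red light in between, and at 12 h it was lower in red light than in darkness by a log2 difference of -1.76 (SE 0.10, limma adjusted p = 2e-24).

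MpAUX1 (Mp1g29330), an auxin importer, was the third hormone member; its log2 difference between darkness at 12 h and 30 min was 1.05, and it was lost at 1.00 without darkness 30 min replicate 1 and at 0.89 after median-ratio scaling. Over the 46 tested genes of this hormone list, 26 were higher and 2 lower in far-red than in red light at 24 h. Over all tested genes 12.6% were higher and 9.98% lower. The median was 1.05 log2 units for the list and 0.10 for all tested genes.

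The transcription factor members separated the lights in different ways. MpWRKY14 (Mp6g16800), of the WRKY family, had 23.0, 23.1 and 24.1 TPM in far-red light at 24 h, 1.58, 2.16 and 1.71 TPM in red, 15.6, 11.6 and 11.6 TPM in blue and 2.12, 3.02 and 2.63 TPM in white light. In darkness at 24 h MpWRKY14 had 29.9, 24.0 and 24.3 TPM, and at time zero 10.9, 10.6 and 10.9 TPM. Blue light was at or above the time-zero level and red and white light were below it, and blue minus red was 2.30 log2 units (SE 0.13, limma adjusted p = 1.8e-23). MpERF2 had 53.6, 63.6 and 53.9 TPM in far-red light at 24 h and 13.9, 16.5 and 10.3 TPM in red light, with a log2 difference of 2.01 (SE 0.17, limma adjusted p = 8.6e-17), and its blue minus red difference was 0.16 (SE 0.17, limma adjusted p = 0.47). The low red-light level of MpERF2 was a late one. At 30 min MpERF2 stood above time zero in all 4 lights, from 1.65 log2 units in red to 1.98 in blue light. In red light it was 1.98 above at 180 min and 0.21 above at 24 h. MpR2R3-MYB20 stood 1.84, 1.89 and 1.54 above time zero at 30 min in red, blue and white light, and 0.77 in far-red light. Of the 191 tested transcription factors, 49 were higher and 2 lower in far-red than in red light at 24 h. Over all tested genes 12.6% were higher and 9.98% lower. The median was 0.52 log2 units for the factors and 0.10 for all tested genes. Of the 7 factor members, 3 were among the 49, near the share of all 157 members (44.6% higher).

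Pathogenesis-related and cell wall members included 3 chitinases of glycoside hydrolase family 19, which cut the chitin of fungal walls. MpGH19.3 (Mp2g24440) had 29.1, 34.2 and 32.6 TPM in far-red light at 24 h, 1.24, 2.55 and 0.524 TPM in red, 2.61, 4.31 and 1.73 TPM in blue and 2.79, 4.49 and 1.95 TPM in white light. Levels of MpGH19.3 were 58.1, 27.4 and 39.9 TPM in darkness at 24 h and 15.7, 11.9 and 11.2 TPM at time zero. The dark libraries of this gene spread widely, but every red, blue and white library was under every other; far-red minus red was 3.84 log2 units (SE 0.27, limma adjusted p = 2.8e-20). The neighbours MpGH19.6 (Mp4g20440) and MpGH19.7 (Mp4g20450) were also higher in far-red than in red light, by 1.54 and 2.44 log2 units. MpCupin82 (Mp5g05170), a protein with a cupin fold, had 18.1, 17.2 and 19.8 TPM in far-red light at 24 h, 0.621, 0.887 and 0.450 TPM in red, 6.80, 7.36 and 6.45 TPM in blue and 0.365, 0.572 and 0.419 TPM in white light. For MpCupin82, darkness at 24 h gave 6.84, 9.34 and 8.97 TPM and time zero 1.25, 1.08 and 2.10 TPM. Blue light held this gene near its dark level, and blue minus red was 2.26 log2 units (SE 0.17, limma adjusted p = 7.1e-18).

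The 1 cytochrome P450 member, the 1 lipoxygenase member and 2 of the 4 transporter members were also higher in far-red than in red light. The transporters were MpABCG34 and MpABCC2. Among the 134 tested transporter genes 26 were higher and 16 lower, with a median of -0.11 log2 units. The 85 cytochrome P450 genes had 21 higher and 12 lower, and the 13 lipoxygenases 7 and 0. For comparison, 12.6% of all tested genes were higher and 9.98% lower, and 44.6% of the 157 members were higher. MpCYP94-like (Mp2g10330), a cytochrome P450 of a family that in Arabidopsis oxidises fatty acids and a jasmonate conjugate, had 34.5, 35.8 and 36.2 TPM in far-red light at 24 h, 1.86, 1.95 and 1.83 TPM in red, 6.73, 6.37 and 4.65 TPM in blue and 2.65, 2.75 and 2.87 TPM in white light. By comparison, MpCYP94-like had 8.60, 9.19 and 10.6 TPM in darkness at 24 h and 1.96, 1.78 and 2.51 TPM at time zero. Far-red libraries exceeded every darkness library, and far-red minus red was 3.66 log2 units (SE 0.15, limma adjusted p = 1.2e-31). MpLOX10 (Mp8g09050), a lipoxygenase, which oxidises unsaturated fatty acids, had 106, 113 and 114 TPM in far-red, 26.7, 24.97 and 23.1 TPM in red, 91.7, 88.8 and 77.9 TPM in blue and 57.0, 56.2 and 57.3 TPM in white light at 24 h. In darkness at 24 h MpLOX10 had 132, 118 and 117 TPM, and at time zero 58.1, 53.9 and 54.4 TPM. Red light alone was below time zero, blue light was above it, and blue minus red was 1.75 log2 units (SE 0.09, limma adjusted p = 7.1e-26). The transporter MpABCG34 (Mp4g05490), of the ATP-binding cassette family, had 194, 187 and 188 TPM in far-red light and 71.1, 71.1 and 62.8 TPM in red light at 24 h, a log2 difference of 1.46 (SE 0.12, limma adjusted p = 8.1e-18), against 59.8, 56.4 and 62.1 TPM in darkness.

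MpNLA (Mp4g03460), whose Arabidopsis relative is a ubiquitin ligase acting on nitrate and phosphate transporters, was low in all 4 lights. It had 7.25, 7.64 and 6.98 TPM in far-red light at 24 h, 1.10, 0.603 and 0.540 TPM in red, 1.14, 0.663 and 1.17 TPM in blue and 1.19, 1.93 and 1.56 TPM in white light. Levels of MpNLA were 41.4, 43.8 and 42.2 TPM in darkness at 24 h and 16.7, 17.2 and 16.7 TPM at time zero. Every light library was below every time-zero library. Its fall from 30 min to 24 h was called in each course, at -1.39 log2 units in far-red, -3.65 in red, -3.44 in blue and -3.22 in white light (limma adjusted p of 2.7e-15 or smaller in each).

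LEA proteins are hydrophilic proteins known for protecting cells during drying, and 8 LEA members were found. MpLEAL7 (Mp2g26410) had 1.09, 2.03 and 1.99 TPM in far-red light at 24 h, 0.578, 0.709 and 2.26 TPM in red, 0.278, 0.0736 and 0.268 TPM in blue and 0.398, 0.0395 and 0.0299 TPM in white light. For MpLEAL7, darkness at 24 h gave 33.7, 50.0 and 46.7 TPM and time zero 12.8, 10.5 and 18.7 TPM. All 4 lights were far below time zero, and the course fell by 2.06 log2 units in far-red light (SE 0.27, limma adjusted p = 6.7e-10) and by 3.30 in blue light (SE 0.27, limma adjusted p = 2.3e-17). MpLEAL1 (Mp4g09300) differed: it had 46.7, 50.4 and 51.6 TPM in far-red, 115, 124 and 96.7 TPM in red, 30.7, 15.02 and 13.9 TPM in blue and 13.5, 31.5 and 10.3 TPM in white light at 24 h. By comparison, MpLEAL1 had 103, 122 and 138 TPM in darkness at 24 h and 41.6, 48.5 and 51.5 TPM at time zero. Red light was level with darkness while blue and white light were under time zero, and blue minus red was -2.52 log2 units (SE 0.24, limma adjusted p = 5e-14).

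Blue light was lower than red for 5 of the 8 LEA members at 24 h and higher for 0. Across the 157 genes, blue minus red at 24 h called 22 higher and 19 lower, where 2.21% and 1.06% of all tested genes were, with a median of 0.10 against 0.00. Over the 64 tested LEA and dehydrin genes 20 were lower and 0 higher in blue than in red light, with a median of -0.46 log2 units. MpLEA1 was among the 5, but its difference of -1.14 came to -0.70, under the threshold, without red 24 h replicate 3, and with a pseudocount of 5 the calls of MpLEA1, MpLEA-like9, MpLEA-like10 and MpLEA-like48 were lost. In white light at 12 h, 7 of the 8 LEA members were lower than in darkness, as were 37 of the 64 LEA genes, whose median was -1.19 log2 units against 0.07 for all tested genes.

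Flavonoid members were listed by their symbols, and whether each acts in flavonoid synthesis was not tested. The pathway from phenylalanine to flavonoids begins with phenylalanine ammonia lyase and continues with chalcone synthase, of the type III polyketide synthases. MpPKS/CHS14 (Mp4g14190) had 16.5, 15.6 and 15.3 TPM in far-red light at 24 h, 70.5, 75.3 and 80.1 TPM in red, 81.3, 77.5 and 82.8 TPM in blue and 56.0, 66.5 and 58.0 TPM in white light. In darkness at 24 h MpPKS/CHS14 had 15.5, 18.5 and 17.2 TPM, and at time zero 6.08, 5.84 and 4.93 TPM. Far-red light was level with darkness and the other 3 lights were well above both; far-red minus red was -2.18 log2 units (SE 0.12, limma adjusted p = 1.1e-25). At 12 h it was higher than in darkness by 2.90 log2 units in red light (SE 0.12, limma adjusted p = 4.1e-32) and by 3.17 in blue light (SE 0.12, limma adjusted p = 5.4e-34).

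MpPKS/CHS10 (Mp4g14100) was likewise lower in far-red than in red light, with 13.6, 12.1 and 13.2 TPM in far-red and 44.9, 46.6 and 52.1 TPM in red light at 24 h, a log2 difference of -1.81 (SE 0.11, limma adjusted p = 1.4e-22). MpPAL-like2 (Mp4g14160), related to phenylalanine ammonia lyase, had 2.21, 3.02 and 3.23 TPM in far-red, 10.4, 12.3 and 8.54 TPM in red, 14.2, 16.1 and 16.3 TPM in blue and 8.67, 12.3 and 10.01 TPM in white light. Levels of MpPAL-like2 were 17.6, 19.3 and 17.9 TPM in darkness at 24 h and 7.72, 7.10 and 7.63 TPM at time zero. Far-red light alone was below time zero, and at 12 h far-red minus darkness was -1.61 log2 units (SE 0.12, limma adjusted p = 1.9e-17). Of the 8 flavonoid members, 5 were lower and 0 higher in far-red than in red light at 24 h. Over the 62 tested flavonoid genes 17 were lower and 5 higher, and over all tested genes 9.98% and 12.6%. The median was -0.40 log2 units for the flavonoid genes and 0.10 for all tested genes.

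The unnamed neighbours Mp7g07350 and Mp7g07360, chosen after their values were seen, carried the largest contrast of all members. Mp7g07360 had 284, 264 and 276 TPM in far-red light at 24 h, 0.0554, 0.532 and 0.390 TPM in red, 1.64, 2.95 and 1.91 TPM in blue and 0.366, 0.357 and 0.488 TPM in white light. For Mp7g07360, darkness at 24 h gave 276, 266 and 290 TPM and time zero 32.2, 30.7 and 27.2 TPM. Mp7g07350 had 165, 163 and 163 TPM in far-red light and 0.167, 0.0709 and 0.0600 TPM in red light. Far-red minus red was 7.72 log2 units for Mp7g07360 (SE 0.14, limma adjusted p = 4.4e-51) and 7.23 for Mp7g07350 (SE 0.12, limma adjusted p = 1.2e-53). Mp7g18470, also chosen this way, was opposite, with 7.98, 8.14 and 7.66 TPM in far-red, 130, 134 and 116 TPM in red, 24.1, 21.6 and 22.1 TPM in blue and 93.8, 102 and 97.8 TPM in white light. Its far-red minus red difference was -3.84 log2 units (SE 0.14, limma adjusted p = 2.6e-34) and its blue minus red difference -2.43 (SE 0.14, limma adjusted p = 3.9e-23).

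Markers of the thallus and of other cells, none of them a member, differed between the lights at 24 h to unlike degrees. The oil body sums overlapped in far-red, red and blue light and in darkness. The summed TPM of 18 dividing-cell genes ranged over 368 to 375 in far-red, 627 to 697 in red, 594 to 626 in blue and 663 to 685 in white light, against 83.8 to 88 in darkness at 24 h and 135 to 146 at time zero. RBCS, the small subunit of the carbon-fixing enzyme and the one named photosynthesis marker, ranged over 63.8 to 70.5 TPM in far-red, 159 to 189 in red, 220 to 231 in blue and 204 to 212 in white light, against 121 to 127 in darkness and 280 to 319 at time zero. The 4 oil body cell markers summed to 50.1 to 52.1 TPM in far-red, 40.4 to 56.5 in red, 45.1 to 52.4 in blue and 60.1 to 71.3 in white light, against 50.2 to 52.2 in darkness and 28.5 to 35.5 at time zero. The 2 gemma cup markers summed to 34.5 to 40 TPM in far-red, 47.5 to 51.4 in red, 39.2 to 43.4 in blue and 62.6 to 70.5 in white light, against 25.8 to 27.7 in darkness and 16.2 to 24.3 at time zero. The 4 sperm and antheridium markers summed to 62.7 to 64.3 TPM in far-red, 62.8 to 79.2 in red, 54.4 to 57 in blue and 51.2 to 52.2 in white light, against 47.1 to 49.3 in darkness and 52 to 54.1 at time zero. Of these 4, MpPRM and MpLC7 stayed under 1 TPM in every library, and no rhizoid marker had a named entry. The part of these cell types in the values above was not tested.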

How the data were processed

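Poly(A) RNA from 78 libraries was quantified by the authors as TPM, deposited per library for 19355 genes and as a table of means; both were checked, every column sums to 1000000, and the means equal the replicate means within 6.9e-11. Per the submitters' processing notes STAR was used; its version, the genome build, annotation, strandedness and filters were not given in the sources used here. Sequencing depth cannot be read from TPM, and intervals for counting error are left out. Members were selected by the rule in the report's opening; the members and lists were chosen with earlier results of these data known.

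The 13054 genes that reached 1 TPM in 3 libraries were fitted as log2(TPM + 1) with limma 3.58.1 in R 4.3.3 (trend=TRUE, 1 mean per group, all 78 libraries, no covariate), and moderated p-values were Benjamini-Hochberg adjusted over all tested genes; the script was tested on simulated data. The log scale understates changes of low genes. A call needs an adjusted p under 0.05 and a log2 difference of at least 1 in size. Replicate correlation within groups was at least 0.988. The correlations of same-numbered replicates' deviations were not all over 0.1, so no pairing was used.

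Names come from locus tags of assembly MpTak2_v7.1 matched by number (17384 identifiers matched, 3091 with a symbol); the table holds no product names, so lists rest on symbols. The match was checked on gene families: the mean pairwise correlation at the match was 0.717 for MCM genes, 0.305 for core histones, 0.376 for LEA and 0.228 for pentatricopeptide repeat genes, and at most 0.213, 0.090, 0.079 and 0.040 in that order when identifiers were shifted. Named genes were, among members with a symbol, the 10 with the largest dark difference, the 2 highest and 2 lowest per light at 24 h, the 3 largest called differences in each direction of far-red minus red and blue minus red, the 2 largest per light against darkness at 12 h and up to 3 per list, plus the 3 most abundant members and the 3 on each side of the threshold; others are marked as chosen after their values were seen or are given as members of a list or run. Beside the families counted in the report, other lists with members were lipoxygenases, expansins, polyphenol oxidases, cytochrome P450, glutathione transferases and transporters (1, 1, 2, 1, 1 and 4 members). Promoter motifs were not analysed here.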

Additional observations from a re-analysis of the deposited data

Results flagged for a closer look

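The 24 h minus 30 min change was called higher in far-red light and lower in red light for 16 of the 157 members. Of these, 4 have a symbol. The same limma fit also tested the difference between the courses, and an adjusted p under 0.05 there was part of the choice. That p-value is therefore no separate support, and opposite calls make a large difference certain. The differences were 2.50 to 7.57 log2 units. The share of all tested genes with these opposite calls was not counted. A wider pattern, higher in far-red and lower in at least 1 other light, held for 20 members (12.7%) and 0.613% of all tested genes. For 1 member the blue course was called higher and the red course lower, chosen in the same way and also without an all-gene count.

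MpDIR39, the dirigent gene, rose by 1.26 log2 units in far-red light and changed by -4.96 in red light, a difference of 6.22 (SE 0.20, limma adjusted p = 6.8e-37). MpCKX1, the cytokinin oxidase, changed by 1.55 in far-red light and by -1.63 in red light, a difference of 3.19 (SE 0.17, limma adjusted p = 1e-25). MpGH19.6, the chitinase, changed by 1.29 in far-red and by -1.22 in red light, a difference of 2.50 (SE 0.29, limma adjusted p = 1.3e-11). Its separate calls lay near the threshold. The red change came to -0.94 when replicate number 1 was left out. With a pseudocount of 5 the changes were 0.88 in far-red and -0.78 in red light, and both calls were lost.

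MpCupin82 changed by 2.41 in far-red light and by -1.05 in red light, a difference of 3.46 (SE 0.24, limma adjusted p = 6.3e-20). It also changed by 1.08 in blue light, so that blue differed from red by 2.13 (SE 0.24, limma adjusted p = 6.6e-11). The separate calls in the red and blue courses of MpCupin82 lay near the threshold: the red change came to -0.96 without red 24 h replicate 3 and the blue change to 0.91 without blue 30 min replicate 2.

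Among the 12 without a symbol, those given in the report were Mp7g07360, which changed by 2.97 in far-red light and by -4.59 in red light, a difference of 7.57 (SE 0.20, limma adjusted p = 1.5e-41), Mp7g07350, with 3.19 and -3.82 and a difference of 7.001 (SE 0.17, limma adjusted p = 9.5e-44), and Mp1g17680, with 1.63 and -4.84 and a difference of 6.47 (SE 0.18, limma adjusted p = 9.3e-40).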

How the results depend on the processing

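With a pseudocount of 5 fewer members were called: darkness at 12 h minus 30 min gave 18 higher; far-red minus darkness at 12 h 13 higher and 6 lower; red, blue and white minus darkness at 12 h 38, 37 and 41 lower; the far-red course (24 h minus 30 min) 37 higher and 5 lower, the red course 30 lower, the blue course 7 and 26, and the white course 7 and 33; at 24 h far-red minus red 11 lower, far-red minus blue 43 higher, far-red minus white 45 higher, and blue minus red 10 higher and 8 lower. Over all tested genes a pseudocount of 5 gave 394 higher and 334 lower in the far-red course and 1159 lower in the red course. The blue course had 695 and 745 and the white course 846 and 781. At 24 h far-red minus red had 881 lower, far-red minus blue 541 higher and far-red minus white 740 higher. Blue minus red had 182 higher and 64 lower. With a pseudocount of 0.1, far-red minus darkness at 12 h gave 17 members lower and blue minus red 31 lower. All tested genes gave 283 and 258 lower in that order. With no fold threshold, darkness at 12 h minus 30 min gave 132 higher; against darkness at 12 h, far-red gave 55 higher and 41 lower, red 33 higher, blue 28 and 95, and white 26 higher; the far-red course gave 106 and 23, the red 24 and 91, the blue 36 and 89 and the white 20 and 102; at 24 h far-red minus red gave 30 lower, far-red minus blue 109 and 21, far-red minus white 22 lower, and blue minus red 49 and 43. Fewer or more calls follow from the construction of these settings. No all-gene counts are given without the fold threshold, so those member counts cannot be set against a background. 

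The choice of members itself depended on the rule: a pseudocount of 0.1 gave 467 genes, a threshold of 1.5 gave 37, and median-ratio scaling gave 120. Leaving out a replicate number gave 165 to 169 genes, of which 135 to 144 were shared with the set. Median differences from time zero at 24 h came to 0.783, -0.127, 0.049 and -0.268 in far-red, red, blue and white light after median-ratio scaling, and to 0.908, -0.131, 0.033 and -0.291 with darkness at 30 min in place of time zero; the cause was not tested. Leaving out a replicate number gave 1.034 to 1.040 in far-red, -0.055 to -0.002 in red, 0.106 to 0.206 in blue and -0.206 to -0.146 in white light.

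Leaving out a library or a replicate number gave 44 to 50 members higher in darkness at 12 h than at 30 min, 69 to 71 in far-red than in red, 65 to 75 in far-red than in blue and 75 to 78 in far-red than in white light. The replicate numbers did not pair the samples; with the replicate block the counts were 47 higher for darkness at 12 h minus 30 min and 70 for far-red minus red. Over all alternatives 4241 values of named members kept their direction and call, 223 lost the call (86 of them with a pseudocount of 5) and 0 reversed. TPM hides depth, so the precision of low members is unknown.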
